A study of Homo sapiens with 14 samples.

Results

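Transcripts of 7 steroid and related nuclear receptor genes were described in 8 RNA sequencing libraries of the prostate cancer cell lines LNCaP and DU145. The genes were taken by symbol and are NR3C1 (glucocorticoid receptor), NR3C2 (mineralocorticoid receptor), PGR (progesterone receptor), ESR1 and ESR2 (estrogen receptors alpha and beta), ESRRA (estrogen related receptor alpha) and VDR (vitamin D receptor). All 7 were listed in both tables, among 44591 genes for LNCaP and 24199 features for DU145. The name steroid receptor holds loosely for the last pair, since ESRRA is an orphan receptor with no known steroid ligand and VDR binds a vitamin D metabolite. LNCaP was sequenced as parental cells grown without drug and as LNCaP-ENZ, an enzalutamide resistant subline selected over 30 days and kept in 20 µM enzalutamide, a second-generation antiandrogen. By the labels each arm is 1 library, although the methods speak of replicates, so no LNCaP difference has a replicate check, and LNCaP-ENZ is a single selected line. DU145 cells carried a control short hairpin (shCON, 3 libraries) or a hairpin against PAX6 (shPAX6, 3 libraries). They came from lentivirus-infected stable lines that had been puromycin selected. The labels do not say which hairpin construct each library carries or whether libraries of a group came from separate cultures, so the p-values measure only the spread between these libraries, which may be technical. Both lines were grown in medium with fetal bovine serum, LNCaP in RPMI-1640 and DU145 in DMEM, and no sample label gives an added glucocorticoid, aldosterone, progestin, estrogen or vitamin D.

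Nuclear receptors are transcription factors that a small ligand switches on. The steroid receptors among them wait in the cytoplasm or nucleus with HSP90 chaperones, bind hormone, pair up on DNA response elements and recruit coactivators. VDR pairs with a retinoid X receptor, while ESRRA is active without hormone and works with the PPARGC1 coactivators on genes of mitochondrial energy metabolism. In prostate cancer the glucocorticoid receptor is known as a candidate bypass under antiandrogens, because it can read many of the DNA sites of the androgen pathway, and the mineralocorticoid receptor shares its ligand cortisol wherever cortisol is not inactivated.

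Promoter sequence is shown for the corticosteroid receptor pair, whose LNCaP levels went opposite ways, and for ESRRA, the most abundant receptor in every library. RefSeq promoter windows were matched to 6 of the 7 receptors, with VDR unmatched. The windows are the 250 bases before an annotated transcript start, given as the first listed window of each gene. NR3C1 has 7 windows and NR3C2 has 4, so those shown need not be the ones used in these cells. Letters run 5′ to 3′ on the strand of the gene. Capitals mark the GC box GGGCGG or its reverse complement CCGCCC, the core of sites read by SP family factors. The windows lie in GRCh37 at chr5:142784048-142784297 (minus strand) for NR3C1, chr4:149363567-149363816 (minus strand) for NR3C2 and chr11:64072746-64072995 (plus strand) for ESRRA.
NR3C1: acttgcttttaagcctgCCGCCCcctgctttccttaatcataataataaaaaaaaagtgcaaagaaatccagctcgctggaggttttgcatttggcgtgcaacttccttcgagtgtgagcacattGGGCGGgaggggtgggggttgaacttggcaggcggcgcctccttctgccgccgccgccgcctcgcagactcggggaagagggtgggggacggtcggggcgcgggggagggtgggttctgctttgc
NR3C2: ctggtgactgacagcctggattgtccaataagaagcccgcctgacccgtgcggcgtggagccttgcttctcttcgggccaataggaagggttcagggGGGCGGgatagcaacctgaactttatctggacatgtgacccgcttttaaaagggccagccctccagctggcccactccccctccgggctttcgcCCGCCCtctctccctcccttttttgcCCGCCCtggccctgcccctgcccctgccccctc
ESRRA: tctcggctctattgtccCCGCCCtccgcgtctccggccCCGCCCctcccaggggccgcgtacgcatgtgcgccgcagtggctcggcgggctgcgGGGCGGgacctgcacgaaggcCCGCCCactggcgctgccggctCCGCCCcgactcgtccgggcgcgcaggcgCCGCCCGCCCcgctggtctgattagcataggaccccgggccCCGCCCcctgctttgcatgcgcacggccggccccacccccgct
The NR3C1 window holds 2 GC boxes, the NR3C2 window 3 and the ESRRA window 8, with overlapping matches counted. At least 1 GC box occurs in 42.6% of the 35116 RefSeq promoter windows of this length, and 8 or more in 0.584%. ESRRA also has the most GC rich of the windows shown, at 78% with 35 CpG dinucleotides, against 59.2% with 17 for NR3C1 and 63.6% with 11 for NR3C2. Over all windows the median is 58% GC with 11 CpG. None of the windows shown holds TATAAA (10.7% of all windows on either strand), AGAACA, a core of glucocorticoid response elements (12.4%), or AGGTCA, a core read by many nuclear receptors (12.1%). These are matches of letters and not measured sites.

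The labelled cell lines were set against cell type markers. KRT8, KRT18 and EPCAM were present in all 8 libraries, and the prostate transcription factor HOXB13 had 11374 and 10025 counts in LNCaP but was listed at 0 in all 6 DU145 libraries. Basal markers KRT5, KRT14 and TP63 were at 0 in DU145 and at 0 to 3 counts in LNCaP. Of the stromal markers, COL1A2, DCN and LUM were at 0 in LNCaP, while COL1A1 had 456 and 231 counts. Summed TPM of the 4 leukocyte markers was 15.2 in both LNCaP libraries, with PTPRC at 23 and 28 counts. The 3 endothelial markers summed to 2.03 TPM in parental LNCaP and 0.204 TPM in LNCaP-ENZ, nearly all of it VWF. In DU145, PTPRC and CD3E were at 0, and the summed leukocyte markers, nearly all CD68, were 35.8 to 38.6 FPKM in shCON and 24.3 to 26.3 FPKM in shPAX6. Whether these differences bear on the receptor levels was not tested.

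The LNCaP libraries held 20468001 (parental) and 17945722 (LNCaP-ENZ) counts. Levels are given as TPM, the deposited length-scaled unit, a value per gene length, with exact Poisson 95% intervals from the counts. Differences are log2 ratios of CPM + 0.1 (CPM being counts scaled to the library total), LNCaP-ENZ over parental, with exact Clopper-Pearson 95% intervals of the count split. These intervals and the floor of 3 counts cover counting error only and compare 2 libraries, not conditions. Fewer cells with a transcript and less RNA per cell cannot be told apart in such bulk samples. Genes were called expressed when their mean CPM reached 1, and over the 14767 expressed genes the median log2 ratio was -0.15.

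**Figure D1:**
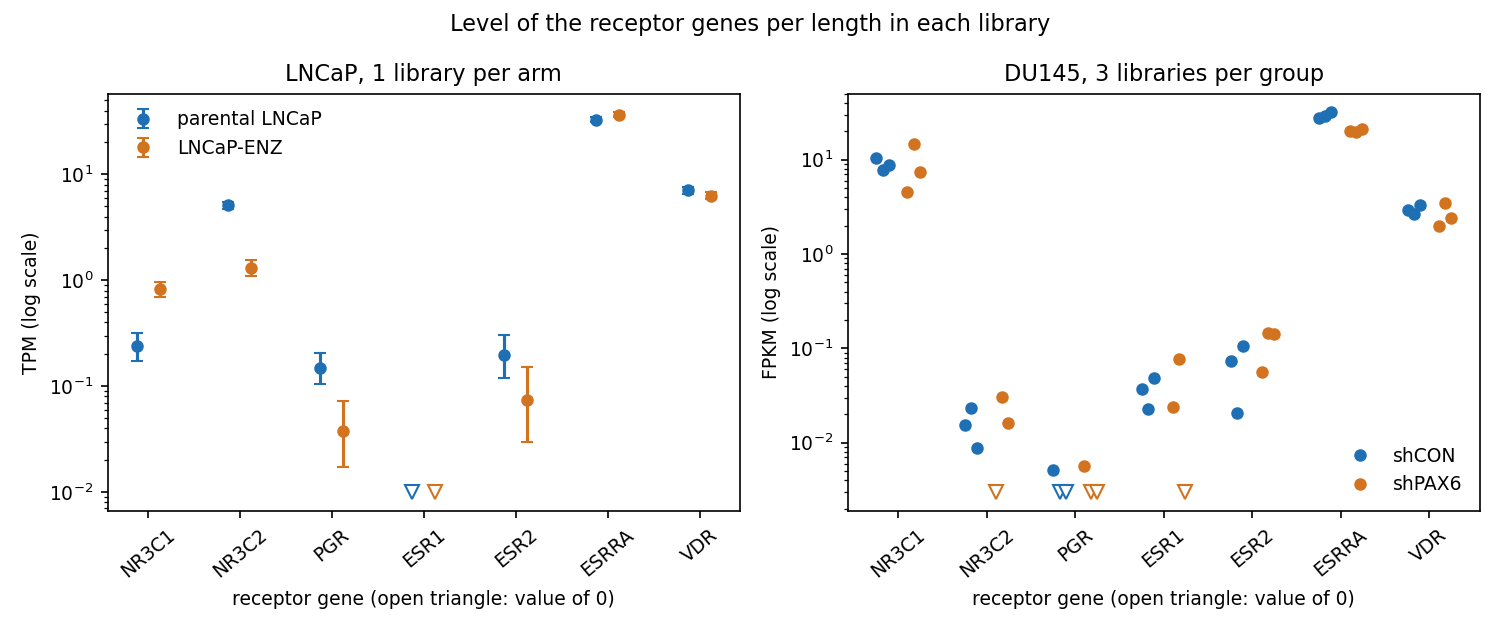
Levels of the 7 receptor genes, as TPM in LNCaP (points with exact Poisson 95% intervals, 1 library per arm) and as FPKM in DU145 (1 point per library), on logarithmic axes; open triangles mark values of 0. ESRRA is the highest receptor in all 8 libraries, NR3C2 is among the higher receptors of LNCaP but near 0 in DU145, and NR3C1 is low in LNCaP and ranks just below ESRRA in DU145.

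In LNCaP the corticosteroid receptors moved in opposite directions between the libraries. NR3C1 (ENSG00000113580, chromosome 5 of GRCh37, 142657496 to 142815077, minus strand) was counted 44 times in parental cells and 142 times in LNCaP-ENZ. That is 0.237 TPM (0.172 to 0.318) against 0.822 TPM, or 3.68-fold more by CPM, and a log2 ratio of 1.83 (1.38 to 2.40). Among the 14767 expressed genes, 52 had a higher ratio, and 1.84% were more than 2-fold higher in LNCaP-ENZ cells. The gene nevertheless stayed a low one, passing from percentile 23.9 to percentile 43.7 of the genes with any count in its library.

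NR3C2 (ENSG00000151623, chromosome 4, 148999915 to 149363672, minus strand) went the other way, from 588 to 141 counts. Its level was 5.08 TPM (4.68 to 5.51) in parental cells and 1.31 TPM in LNCaP-ENZ cells, 3.66-fold lower by CPM, with a log2 ratio of -1.86 (-2.15 to -1.60). A lower ratio was found for 204 genes, and 9.57% of genes were more than 2-fold lower. Per length, NR3C2 transcripts outnumbered NR3C1 transcripts by a ratio of 21.4 (15.8 to 29.8) in parental cells and by 1.59 (1.25 to 2.03) in LNCaP-ENZ cells. The intervals of the ratio do not overlap, and NR3C2 was still the more abundant of the pair in both libraries. An antisense gene that overlaps NR3C2 had 0 counts in both libraries.

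The progesterone and estrogen receptors were low in both LNCaP libraries. PGR (ENSG00000082175, chromosome 11, 100900355 to 101000544, minus strand), itself a classic estrogen target, had 38 and 9 counts, or 0.149 and 0.0378 TPM. Its log2 ratio was -1.70 (-3.12 to -0.82), and its size depends on the few counts, since it was -0.93 with a pseudocount of 1 and -0.85 from the deposited TPM. The antisense gene PGR-AS1 overlaps it by 737 bases and had 10 and 2 counts. Without a statement that strand was used, reads in that overlap may belong to either gene.
ESR2 (ENSG00000140009, chromosome 14, 64693430 to 64805268, minus strand) had 20 and 7 counts, 0.196 and 0.0739 TPM, and a log2 ratio of -1.14 (-2.81 to -0.03). Its mean of 0.684 CPM put it below the expression filter. A gene on the same strand overlaps it by 9120 bases and had 15 and 8 counts, so its counts are uncertain. ESR1 (ENSG00000091831, chromosome 6, 152011631 to 152450739, plus strand), the main estrogen receptor of breast cancer, had 0 counts in both LNCaP libraries. The floor of 3 counts allows up to 0.0133 TPM in parental and 0.0143 TPM in LNCaP-ENZ cells, and no fold change can be given.

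ESRRA and VDR were the most abundant receptors and differed least. ESRRA (ENSG00000173153, chromosome 11, 64073000 to 64084215, plus strand) had 1603 and 1664 counts, 32.8 and 36.6 TPM, with a log2 ratio of 0.24 (0.14 to 0.34). With edgeR's TMM factors the ratio was 0.39. ESRRA overlaps TRMT112 on the other strand by 252 bases, and TRMT112 had 1507 and 1608 counts, so some reads in the overlap may belong to either gene. VDR (ENSG00000111424, chromosome 12, 48235320 to 48298814, minus strand) had 717 and 595 counts, 7.08 and 6.31 TPM. Its log2 ratio of -0.08 (-0.24 to 0.08) has an interval that includes 0, and it was 0.07 with TMM factors.

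**Figure D2:**
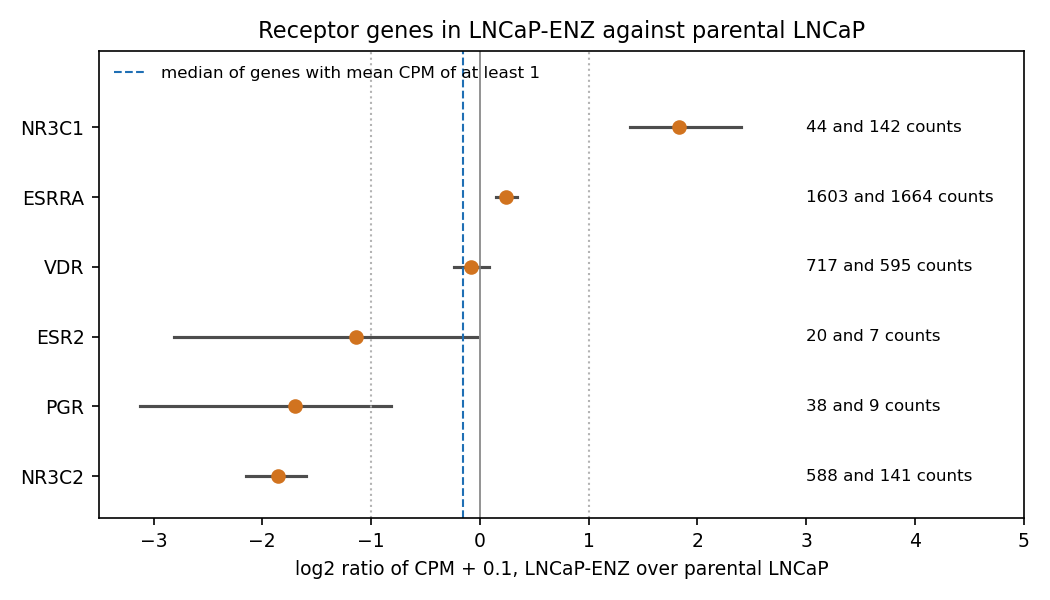
Log2 ratio of CPM + 0.1 of each receptor gene with counts, LNCaP-ENZ over parental LNCaP (points), with exact Clopper-Pearson 95% intervals (lines) and the counts in parental and LNCaP-ENZ cells at the right. The dashed line is the median of the 14767 expressed genes at -0.15, the dotted lines mark 2-fold; NR3C1 lies at 1.83 and NR3C2 at -1.86, while ESRRA and VDR lie within 2-fold.

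Of the 5 expressed receptors, 1 was more than 2-fold higher (NR3C1) and 2 were more than 2-fold lower (NR3C2 and PGR). Over all genes that passed, 11.4% were past 2-fold in either direction. The count of receptors is too small to set them apart from other genes. By TPM the order in parental cells was ESRRA, VDR, NR3C2, then NR3C1, ESR2 and PGR with overlapping intervals between neighbours, and last ESR1. In LNCaP-ENZ cells NR3C1 stood clear of ESR2, and the intervals of ESR2 and PGR, and of PGR and ESR1, overlapped. Of the TPM summed over the 7 receptors, ESRRA made up 72.0% in parental and 81.0% in LNCaP-ENZ cells and VDR 15.5% and 14.0%. The share of NR3C2 was 11.2% and 2.90%, and that of NR3C1 0.521% and 1.82%. ESRRA exceeded VDR by a TPM ratio of 4.63 in parental and 5.80 in LNCaP-ENZ cells.

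Genes that glucocorticoids are known to induce were mostly lower in LNCaP-ENZ, although the NR3C1 transcript was higher. All 14 genes of the list passed the filter, 11 were lower and 3 higher, and their median log2 ratio was -0.75, against -0.15 for all genes, of which 9196 were lower and 5571 higher. With TMM factors 9 were lower and 5 higher, against 50.8% of all expressed genes lower. FKBP5, a cochaperone that many steroid receptors induce, had 1249 and 648 counts (log2 ratio -0.76, -0.90 to -0.62). TSC22D3, which encodes the glucocorticoid-induced leucine zipper GILZ, had 1383 and 711 counts (-0.77). SGK1, a kinase induced by both corticosteroid receptors, had 61 and 31 counts (-0.75, -1.46 to -0.14). The furthest apart was ZBTB16, a zinc finger repressor, with 395 and 7 counts (-5.31), and NFKBIA, the inhibitor of NF-kB, was at the other end with 2782 and 3778 counts (0.63). Several of these genes also answer to androgens, so the list is not particular to 1 receptor. Past 2-fold lower were 5 of the 14, ZBTB16 and 4 named here after their values were seen, the clock gene PER1 (-1.12), KLF9 (-1.30), the EGFR inhibitor ERRFI1 (-1.05) and CRISPLD2 (-1.05). Over all expressed genes 9.57% were past 2-fold lower. With TMM factors 2 of these 5 stayed past 2-fold, KLF9 and ZBTB16, and the number of all expressed genes past 2-fold lower went from 1413 to 982.

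The 6 genes of the mineralocorticoid response, which encode sodium channel and sodium pump subunits and a regulator of the channel, were all within 2-fold. Of these, 5 were lower, against 62.3% of all expressed genes, and 1 was higher, with a median of -0.19. With TMM factors 3 were lower and 3 higher, against 50.8% of all expressed genes lower. NEDD4L, the ubiquitin ligase that removes the sodium channel, was lowest with 1845 and 928 counts (-0.80). ATP1B1, a sodium pump subunit, was highest (0.18). HSD11B2, the enzyme that inactivates cortisol and so guards the mineralocorticoid receptor, had 2504 and 1726 counts (-0.35, -0.44 to -0.26), whereas HSD11B1, which regenerates cortisol, had 0 and 1 counts.

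Among 9 expressed estrogen target genes, 6 were higher and 3 lower, against 62.3% of all expressed genes lower. Their median of 0.08 became -0.00086 from the deposited TPM, where 4 were higher and 5 lower, against 69.2% of all expressed genes lower. GREB1, an estrogen receptor cofactor that androgens also induce, had 406 and 145 counts (-1.29), and NRIP1, a corepressor, had 815 and 266 counts (-1.42). These were the 2 genes of the list past 2-fold, against 11.4% of all expressed genes. MYB had 136 and 220 counts (0.87). Of 5 expressed vitamin D targets, IGFBP3, a secreted binding protein of insulin-like growth factors with many inducers, stood alone at 157 and 4596 counts (5.04). CYP24A1, which degrades the active vitamin D hormone and is its most sensitive target, had 37 and 21 counts (-0.59, -1.47 to 0.18). The median of the vitamin D list was -0.59, with 2 genes higher and 3 lower. The 9 expressed ESRRA target genes of mitochondrial metabolism were all within 2-fold, 6 higher and 3 lower (8 and 1 with TMM factors), from CPT1B, a fatty acid carrier, with 114 and 134 counts (0.42) to ACADM, an enzyme of fatty acid oxidation, with 414 and 187 counts (-0.95).

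Transcripts of the proteins that the receptors work with were measured as well. Over all expressed genes 62.3% were lower in LNCaP-ENZ (50.8% with TMM factors) and 11.4% were past 2-fold in either direction. Of 14 chaperones, 9 were higher and 5 lower with a median of 0.22 (12 and 2 with TMM factors). HSPA8, the constitutive HSP70, had 26550 and 48553 counts (1.06), while HSP90AA1, the inducible HSP90, had 6675 and 4095 counts (-0.52). Of 14 coactivators and corepressors, 12 were lower and 2 higher with a median of -0.36 (9 and 5 with TMM factors). NCOA1, a steroid receptor coactivator, had 1740 and 703 counts (-1.12), and the ESRRA partners PPARGC1A and PPARGC1B had 72 and 36 counts (-0.78) and 1188 and 1045 counts (0.0047). PELP1, a nuclear receptor coregulator, had 3269 and 4081 counts (0.51). Among 6 expressed genes of retinoid X receptors and ligand handling, 3 were higher and 3 lower. RXRA, the usual partner of VDR, had 2900 and 3456 counts (0.44). CYP27B1, which makes the active vitamin D hormone, had 127 and 162 counts (0.53), and CYP2R1, which acts in the step before, had 295 and 148 counts (-0.80). Of 23 other expressed nuclear receptors, 14 were lower and 9 higher (10 and 13 with TMM factors). NR2F1, an orphan receptor known from neural development and tumour dormancy, had 54 and 207 counts (2.09, 1.69 to 2.59), a ratio whose interval overlaps that of NR3C1. NR1D2, a clock repressor, had 511 and 165 counts (-1.43). Past 2-fold were these and THRB, a thyroid hormone receptor named here after its value was seen (-1.31).

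In DU145 the values were treated as FPKM, a fragment density per gene length scaled by library size, with unknown depth. Differences were tested with limma on log2(FPKM + 0.1) over 13574 features (mean FPKM of 0.5 or more), and log2 fold changes are shPAX6 over shCON on that scale, which understates the change of low genes. Adjusted p-values are Benjamini-Hochberg values over all tested features, two-sided. PAX6, the target of the hairpin, was 0.839, 1.23 and 1.57 FPKM in shCON libraries 1 to 3 and 0.0153, 0.274 and 0.0778 FPKM in shPAX6 libraries 1 to 3. Its groups did not overlap, and its log2 fold change was -2.69 (SE 0.49, adjusted p = 0.054). The shPAX6 library 1 stood apart from the others, with a median log2 value of 2.50 over tested features against 2.80 to 3.00, and with the highest summed FPKM. Each receptor result is therefore also given without it.

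NR3C1 was a well expressed receptor in DU145. It measured 10.5, 7.68 and 8.69 FPKM in shCON libraries 1 to 3 and 4.50, 14.8 and 7.34 FPKM in shPAX6 libraries 1 to 3. The shPAX6 libraries lay on both sides of all shCON libraries, with a highest value 3.28 times the lowest. Means were 8.96 ± 1.43 and 8.87 ± 5.30 (SD, n = 3 per group). The log2 fold change was -0.17 (SE 0.40, 95% interval -1.09 to 0.75, limma adjusted p = 0.87), an interval that does not exclude a change of 1.68-fold upward or to 0.469 of the control level. Without shPAX6 library 1 it was 0.23 (adjusted p = 0.63), so the direction depends on that library, and the order of NR3C1 over the shPAX6 libraries is the order of their median values. Its part in the spread was not tested.

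ESRRA was the highest receptor and the only one whose groups did not overlap. It measured 27.7, 29.2 and 31.6 FPKM in shCON libraries 1 to 3 and 20.4, 19.7 and 21.4 FPKM in shPAX6 libraries 1 to 3. The means of 29.5 ± 2.00 and 20.5 ± 0.84 (SD, n = 3 per group) put the shPAX6 level at 69.4% of control. The log2 fold change was -0.52 (SE 0.12, 95% interval -0.81 to -0.23), with a limma p of 0.0034 and an adjusted p of 0.092, which does not pass 0.05. The exact permutation test gave p = 0.10, the smallest that 3 against 3 libraries allow. Groups that did not overlap were found for 26.7% of tested features, 20% lower and 6.7% higher in shPAX6, so this pattern was common. Without shPAX6 library 1 the log2 fold change was -0.52 and its adjusted p 0.043. In that fit 920 of all 13574 features passed, against 163 with all libraries.
ESRRA transcripts are GC rich (64.1%, against 54.2% for VDR and 39.1% for NR3C1), and log2 fold changes fell with GC content over 12009 features (Spearman's rho -0.36, across features that are not independent). With a GC correction per library the ESRRA log2 fold change was -0.30 (adjusted p = 0.41). Its overlapping neighbour TRMT112 measured 264, 281 and 275 FPKM in shCON and 431, 217 and 294 FPKM in shPAX6. TRMT112 had no common direction, and the ratio of ESRRA to TRMT112 was 0.104 to 0.115 in shCON and 0.0472 to 0.0909 in shPAX6 (exact permutation p = 0.10, n = 3 per group).

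VDR measured 2.93, 2.63 and 3.30 FPKM in shCON and 1.97, 3.50 and 2.40 FPKM in shPAX6 libraries 1 to 3. The groups overlapped, with means of 2.95 ± 0.34 and 2.62 ± 0.79 (SD, n = 3 per group). The log2 fold change was -0.20 (SE 0.26, 95% interval -0.79 to 0.40, limma adjusted p = 0.74), and without shPAX6 library 1 it was -0.02.

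**Figure D3:**
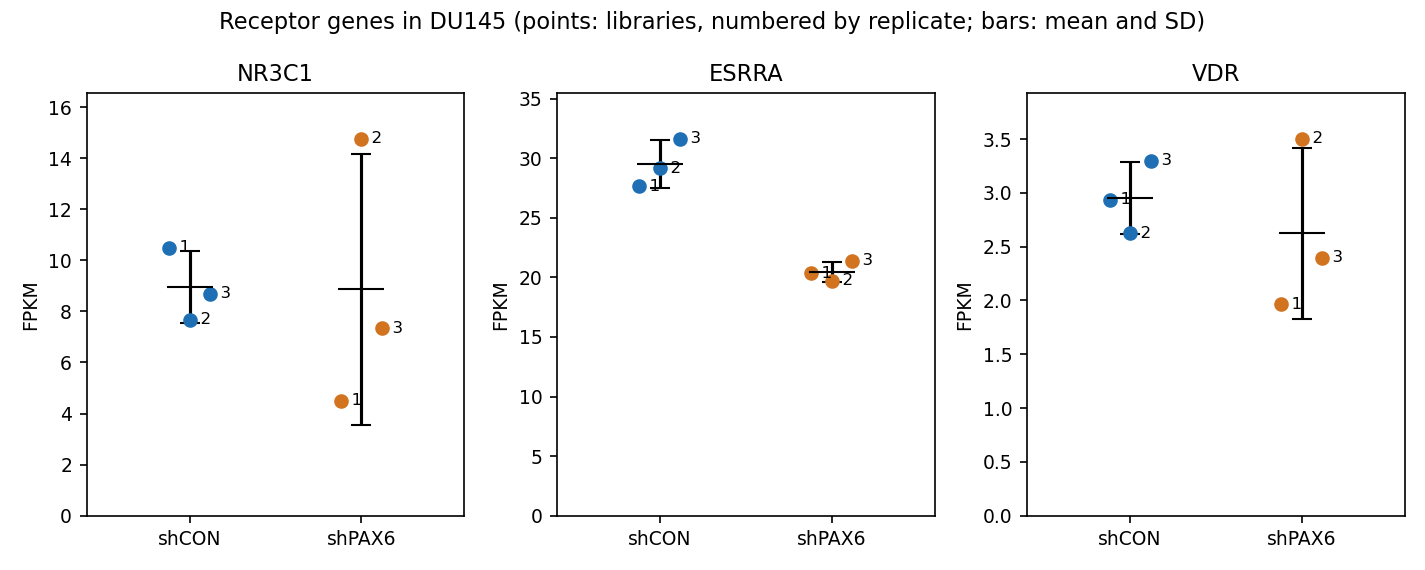
FPKM of NR3C1, ESRRA and VDR in the 6 DU145 libraries (points, numbered by replicate) with group mean and SD (black bars); each axis starts at 0. ESRRA is 27.7 to 31.6 in shCON and 19.7 to 21.4 in shPAX6, while the NR3C1 and VDR groups overlap and shPAX6 library 2 is highest for both.

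The other 4 receptors were at the edge of detection in DU145 and below the filter. ESR2 measured 0.0731, 0.0209 and 0.107 FPKM in shCON and 0.0566, 0.145 and 0.142 FPKM in shPAX6, with overlapping groups (exact permutation p = 0.30, n = 3 per group). ESR1 measured 0.0371, 0.0227 and 0.0487 FPKM in shCON and 0.0239, 0.0775 and 0 FPKM in shPAX6. The mineralocorticoid receptor NR3C2, a moderately expressed gene in LNCaP, was at most 0.0232 FPKM in shCON and 0.0308 FPKM in shPAX6. PGR was listed at 0 in 4 of the 6 libraries and reached 0.00561 FPKM. At such levels a difference was not detectable.

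Of the 7 receptors, 3 were tested in DU145 and 0 passed the limma adjusted test, against 1.2% of all 13574 features (0.177% higher and 1.02% lower). At an unadjusted p under 0.05, 1 of the 3 was called (ESRRA), against 18.3% of features (4.15% higher and 14.1% lower). The order by mean FPKM was ESRRA, NR3C1 and VDR in both groups, each clear of its neighbour in range, followed by ESR2, ESR1 and NR3C2 with overlapping ranges and by PGR. ESRRA made up 67.1% to 73.8% of the summed receptor FPKM in shCON and 51.6% to 75.7% in shPAX6, and NR3C1 19.4% to 25.5% and 16.7% to 38.6%. The ratio of NR3C1 to ESRRA was 0.379, 0.263 and 0.275 in shCON and 0.221, 0.749 and 0.343 in shPAX6 (exact permutation p = 0.70, n = 3 per group). The ratio of ESRRA to VDR was 9.43, 11.1 and 9.59 in shCON and 10.3, 5.63 and 8.91 in shPAX6 (exact permutation p = 0.40, n = 3 per group). Neither ratio within a library separated the groups.

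The genes that act with or after the receptors gave a single call in DU145. Over all tested features 62.9% were lower in shPAX6, 1.2% passed the adjusted test, and at an unadjusted p under 0.05 14.1% were lower and 4.15% higher. NR4A1, an orphan nuclear receptor induced early after growth and stress signals, was 32.0, 38.3 and 40.7 FPKM in shCON and 13.3, 14.1 and 16.5 FPKM in shPAX6. Every shPAX6 library lay below every shCON library, as for 20% of tested features. The NR4A1 log2 fold change was -1.33 (SE 0.15, limma adjusted p = 0.020). It did not pass when shCON library 1, 2 or 3 or shPAX6 library 3 was left out, with log2 fold changes of -1.26 to -1.43 over all libraries left out in turn and adjusted p of 0.0048 to 0.19. It was the only gene to pass among 20 other nuclear receptors tested, against 1.2% of all features, and 6 were lower and 0 higher at an unadjusted p under 0.05. In all 17 were lower and 3 higher, against 62.9% of all features lower, with a median of -0.39, against -0.12 for all tested features. With median centring 12 were lower and 8 higher, with a median of -0.21, against 0.06 for all tested features. PPARA, a fatty acid receptor, had the lowest value (-1.35, adjusted p = 0.18) and NR2F2, the orphan receptor COUP-TFII, the highest (0.11).

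Of 13 glucocorticoid target genes tested, 0 passed the limma adjusted test (2 higher and 2 lower at an unadjusted p under 0.05, against 4.15% and 14.1% of all features), 7 were higher and 6 lower, and their median was 0.02. FKBP5 measured 26.8, 22 and 25.8 FPKM in shCON and 13.3, 28.7 and 21.2 FPKM in shPAX6 (log2 fold change -0.30, adjusted p = 0.62), with library 1 lowest as it was for NR3C1. TSC22D3 had a log2 fold change of 0.63 (adjusted p = 0.19), SGK1 of 0.48 (0.36) and the metallothionein MT2A of 0.90 (0.30), the last with its highest value in shPAX6 library 1. CEBPD, a transcription factor, was at the other end (-1.10, adjusted p = 0.13).
Of 4 mineralocorticoid response genes tested, 0 passed (1 lower unadjusted), from ATP1B1 (0.03) to the sodium channel subunit SCNN1A (-0.60). Of 7 estrogen targets tested, 0 passed (2 higher and 1 lower unadjusted), from CA12, a carbonic anhydrase (0.98, adjusted p = 0.18), to IGFBP4 (-0.80, adjusted p = 0.071). GREB1 was below the filter, at 0.471 to 0.676 FPKM in shCON and 0.122 to 0.354 FPKM in shPAX6. Of 5 vitamin D targets tested, 0 passed (3 lower unadjusted, against 14.1% of all features), 4 being lower and 1 higher, against 62.9% of all features lower, with a median of -0.42. That list ran from THBD, thrombomodulin (-1.08, adjusted p = 0.14), to CYP24A1 (0.44, adjusted p = 0.63). Of 9 ESRRA targets tested, 0 passed (1 higher unadjusted), 5 being lower and 4 higher with a median of -0.10. Cytochrome c, CYCS, was at 0.48 (adjusted p = 0.12) and CPT1B at -0.48 (adjusted p = 0.68).

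Of 14 chaperones, 0 passed the limma adjusted test (1 lower unadjusted), 9 being higher and 5 lower, from HSP90AA1 (0.30) to the phosphatase PPP5C (-0.30). Of 13 coactivators and corepressors, 0 passed (1 lower unadjusted), 12 being lower and 1 higher, against 62.9% of all features lower, with a median of -0.24. With median centring 8 were lower and 5 higher, with a median of -0.06, against 0.06 for all tested features. Without shPAX6 library 1 their median was 0.06 with 8 higher, against a median of -0.04 for all tested features. The direction of this list therefore rests on that library. The acetyltransferase EP300 was lowest (-0.84, adjusted p = 0.52) and PELP1 highest (0.16). PPARGC1B had a log2 fold change of -0.41 (adjusted p = 0.74), and PPARGC1A was listed at 0 in all shCON libraries and reached 0.0122 FPKM in shPAX6. Of 6 genes of retinoid X receptors and ligand handling, 0 passed (3 lower unadjusted, against 14.1% of all features) and 5 were lower. With median centring 3 of them were lower, with a median of -0.07, against 0.06 for all tested features. RXRA measured 16.8, 16.9 and 18.4 FPKM in shCON and 6.64, 15.1 and 8.90 FPKM in shPAX6. Its groups did not overlap, as for 26.7% of tested features (20% lower in shPAX6). The RXRA log2 fold change was -0.84 (adjusted p = 0.19). H6PD, which supplies cofactor for cortisol regeneration, was lowest (-1.23, adjusted p = 0.083) and CYP2R1 highest (0.11). HSD11B2 was at -0.01 and HSD11B1 was listed at 0 in all 6 libraries.

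**Figure D4:**
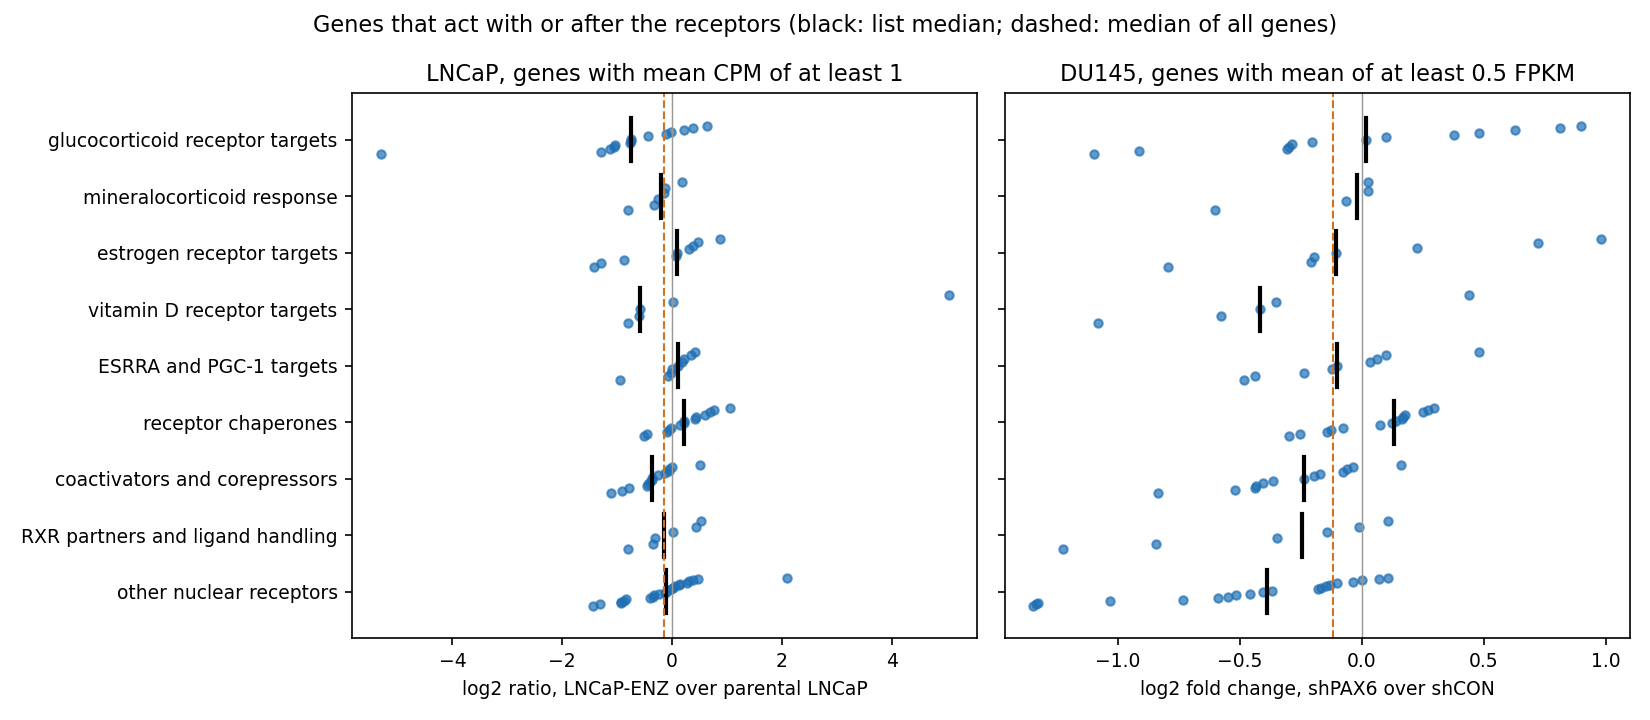
Log2 differences of genes that act with or after the receptors, in LNCaP (log2 ratio of CPM + 0.1, LNCaP-ENZ over parental) and in DU145 (log2 fold change of FPKM + 0.1, shPAX6 over shCON); each point is a gene, black bars are list medians and dashed lines the medians of all genes, -0.15 and -0.12. The glucocorticoid target list has its median at -0.75 in LNCaP and at 0.02 in DU145, and each list spreads over both sides of 0.

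Over the 6 DU145 libraries, the genes whose log2 values most resembled NR3C1 and ESRRA were found by Pearson's r among 12050 other tested genes with an Ensembl identifier. NR3C1 was closest to ZNF391, ERCC4 and RIPK1, each with r of 0.999. High values were common, since 16.5% of genes reached an r of 0.9. ESRRA was closest to GPR108, MMP15 and KIFC3, each with r of 0.999, and 8.20% of genes reached 0.9. These are descriptions over libraries that share their normalization, and the LNCaP pair of libraries allows none.

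The LNCaP and DU145 tables were normalized separately, so only orders within a library were set side by side. ESRRA led in all 8 libraries, at percentiles 92.9 and 93.8 of the genes above 0 in LNCaP and 79.2 to 85.3 in DU145. VDR was at percentiles 73.2 and 73.9 in LNCaP and 43.6 to 49.3 in DU145. The corticosteroid receptors changed places between the lines. NR3C2 was at percentiles 67.8 and 50.2 in LNCaP and at or below 3.49 in DU145, while NR3C1 was at 23.9 and 43.7 in LNCaP and 56.9 to 74.4 in DU145. No test was made across the lines. The percentiles depend on which genes are counted, and 44591 genes were listed for LNCaP against 24199 features for DU145. Among genes of at least 0.5 TPM, NR3C1 in LNCaP-ENZ was at 11.3, and in parental LNCaP it was below that level. Among DU145 features of at least 0.5 FPKM, NR3C1 was at 51.7 to 58.1 in shCON and 43.2 to 65.5 in shPAX6.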

How the data were processed

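RNA sequencing tables of 2 LNCaP and 6 DU145 libraries were used, and the 6 ATAC-seq samples were not analysed here. Per the methods of the study, oligo-dT primed cDNA was sequenced, HISAT2 placed the reads on GRCh37 and StringTie quantified transcripts. The labels describe another library kit and read length, and strand use in counting is not given in the sources used here. For LNCaP the authors deposited raw counts and TPM per gene, listed by symbol. For DU145 the deposited values carry no unit and were treated as FPKM computed by the authors, so depth is unknown and no count test was run.

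Counts were scaled by library total, with a pseudocount of 0.1 CPM. With 1 library per arm no test was made. DU145 values were tested with limma 3.58.1 (eBayes with a trend) in R 4.3.3, with Benjamini-Hochberg adjustment at 0.05, and single ratios and genes with an exact permutation test, two-sided. TMM factors came from edgeR 4.0.16. The limma fit, the GC correction and the interval of the count split were tested on simulated data. Overlaps and LNCaP positions come from the authors' table, and promoters from RefSeq, located by exact match in GRCh37. Named list genes were a core set, every gene that passed in DU145 and the largest change in each direction per list. The receptors, lists and naming rule were chosen with earlier results of these data known. The labels do not say whether equal replicate numbers pair the libraries, and the main fit used no pairing. Correlations of deviations of same-numbered libraries were -0.17, -0.37 and 0.05. With 3 libraries per group these cannot exclude a shared culture or batch. Alternatives were pseudocounts of 1 and 0.01, other filters and scalings, array weights, a GC correction (loess, span 0.5), the replicate block and each DU145 library left out in turn. The genes most like VDR over the DU145 libraries are not reported here.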

Additional observations from a re-analysis of the deposited data

How the results depend on the processing

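In LNCaP, NR3C1 (log2 ratio 1.45 to 1.99), NR3C2 (-1.88 to -1.70), PGR (-1.87 to -0.85) and ESR2 (-1.30 to -0.51) kept their direction under all 6 alternatives. ESRRA moved outside its counting interval to 0.39 with TMM factors and to 0.40 with the median log2 ratio of genes set to 0, and VDR ranged from -0.16 to 0.08. Genes more than 2-fold higher and lower numbered 271 and 1413, against 400 and 982 with TMM factors and 143 and 911 with a pseudocount of 1. In DU145 the NR3C1 log2 fold change turned to 0.030 with quantile normalization and 0.0048 with median centring, and ranged from -0.62 to 0.23 with 1 library left out. VDR turned to 0.0053 with quantile normalization and ranged from -0.42 to -0.02 with 1 library left out. ESRRA stayed lower throughout, from -0.52 to -0.30 and from -0.57 to -0.47 with 1 library left out (adjusted p 0.043 to 0.45); it passed with array weights (-0.46, adjusted p = 0.0020) and without shPAX6 library 1. Median centring gave ESRRA -0.35 (adjusted p = 0.35). The 163 features that passed (24 higher and 139 lower, against 74 and 162 with quantile normalization) became 108 with no filter, 100 with median centring (28 higher and 72 lower), 4569 with array weights, 0 with the replicate block and 3 with the block and the GC correction together, and 0 to 920 with 1 library left out; causes were not tested. Array weights also called 5 of 13 glucocorticoid targets and 8 of 20 other nuclear receptors, against 4569 of all 13574 features. With 1 library left out up to 3 and 5 of these passed, both without shPAX6 library 2, where 903 of all 13574 features passed. With the block, 1568 features had an unadjusted p under 0.05, and ESRRA had an adjusted p of 0.34. Among genes of at least 0.5 TPM or FPKM the receptor percentiles are lower, most of all for the low receptors. ESRRA in parental LNCaP went from 92.9 to 89.3. In LNCaP-ENZ, NR3C1 went from 43.7 to 11.3 and NR3C2 from 50.2 to 21.4. The lowest shCON percentile went from 63.9 to 51.7 for NR3C1 and from 46.8 to 28.9 for VDR. Unknown depth limits the 4 low receptors in DU145, and 1 library per arm limits LNCaP.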
